A study of Fragaria vesca with 3 samples.

Results

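The genes described as AGAMOUS (FvH4_6g37880), transcription factor MADS-box 2 (FvH4_4g23530) and MADS-box protein JOINTLESS (FvH4_1g19710) were examined for peaks of FvSEP3, a MADS-domain transcription factor of woodland strawberry (Fragaria vesca). They are 3 of the 18238 genes to which a peak was assigned in at least 1 of the replicate lists, and were found by their gene IDs. The assay was DNA affinity purification sequencing (DAP-seq), in which purified genomic DNA is captured by a transcription factor outside the cell and the captured fragments are sequenced. The DNA came from fruit of wild-type plants at 30 days post anthesis. The samples were 2 immunoprecipitation (IP) replicates, called independent biological replicates in the labels, and 1 input library of the same tissue as a negative control. All samples were of 1 genotype and the labels name no treatment, so the comparisons are between replicates, between genes and between positions. Purified DNA carries no nucleosomes, and binding in the fruit cell itself was not measured.

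MADS-domain proteins bind DNA as pairs at CArG boxes, short motifs with an A- and T-rich core, and pairs can join into larger complexes on DNA. SEPALLATA proteins are the floral members of the family that join the other organ identity proteins into such complexes. In Arabidopsis, AGAMOUS sets the identity of stamens and carpels and ends the growth of the floral meristem, and much of its own regulatory DNA lies in its large second intron. In tomato, JOINTLESS is needed for the abscission zone of the flower stalk. The description of FvH4_4g23530 comes from a protein of the related species Fragaria chiloensis and gives no role. The lists mark no gene as the one that encodes FvSEP3, so whether any of the 3 genes, MADS-box 2 included, is the FvSEP3 gene itself was not tested.

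Across the 3 genes, the lists held 5 peaks in replicate 1, 5 in replicate 2 and 4 in the authors' merged list. All 3 genes had a peak in each replicate list, but only AGAMOUS and MADS-box 2 had a peak at the same place in both, where the same place means an overlap of at least 1 bp. AGAMOUS had 1 such shared peak, MADS-box 2 had 3, and JOINTLESS had 0. Here and below, shared peaks were counted from the replicate 1 peaks of a gene, whatever gene the overlapping replicate 2 peak was assigned to. The 2 genes with a shared peak are read against a background of 59.2% of the 18238 genes, and a peak in the merged list, held by the same 2 genes, was found for 58.3%. None of the peaks lay in a promoter or an exon by the authors' annotation, and the intron peaks carried the ID of the gene they were assigned to. Positions are those the authors listed, and the sources used here name no genome build for them. Fold enrichment is the authors' own value for each peak. No read counts were held, and library depth is therefore unknown. The replicate 1 list held 19298 peaks with fold enrichments from 2.002 to 7.21 and a median of 3.05. The replicate 2 list held 21823 peaks from 2.001 to 7.56 with a median of 3.004.

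**Figure D1:**
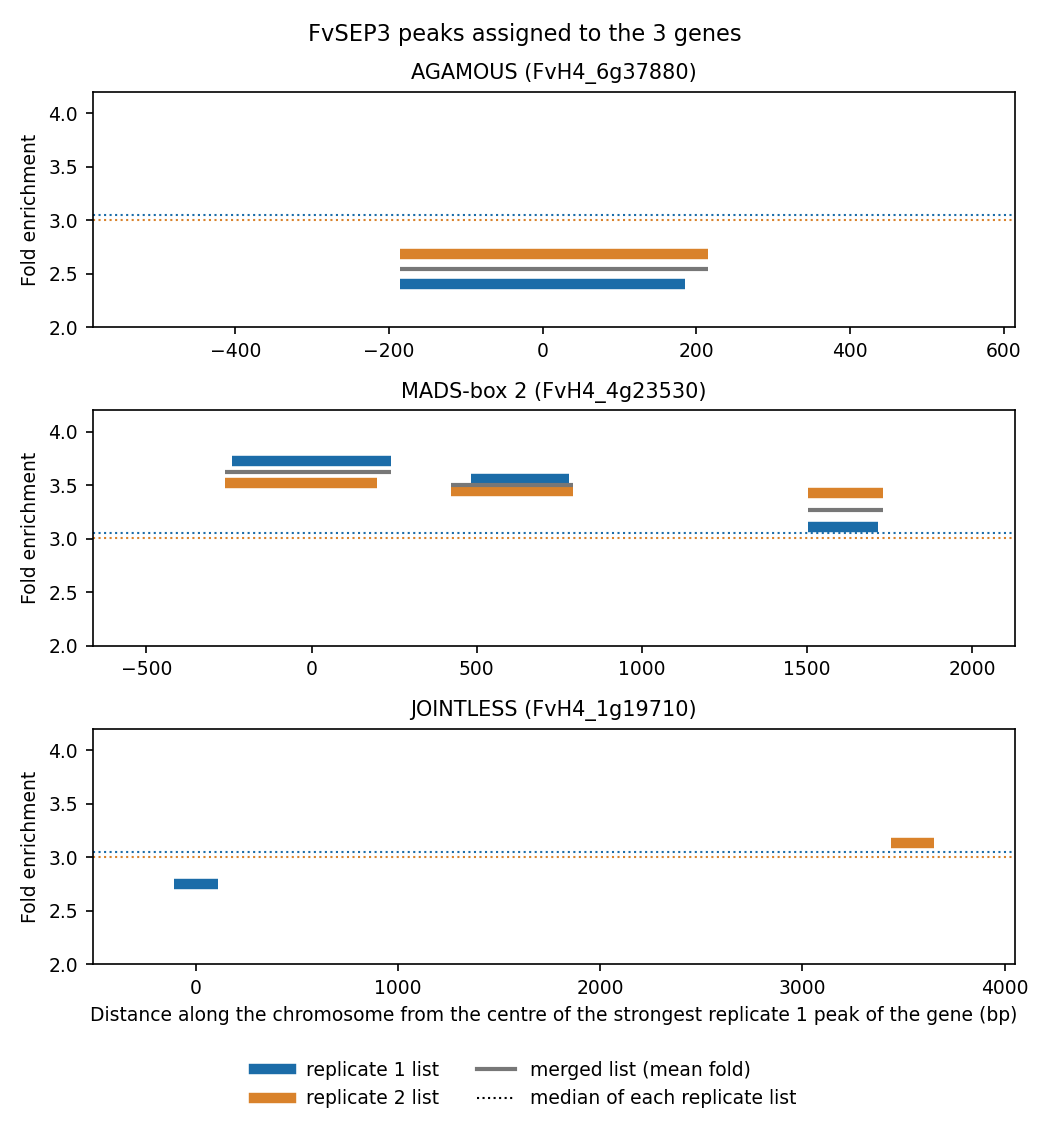
Each bar spans a peak along the chromosome (horizontal axis, bp from the centre of the gene's strongest replicate 1 peak) at its fold enrichment (vertical axis, starting at 2), in blue for replicate 1, orange for replicate 2 and grey for the merged list, with the median of each replicate list dotted. The 3 MADS-box 2 peaks lie above both medians and overlap between replicates, the AGAMOUS peak overlaps below both medians, and the JOINTLESS peaks lie apart.

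AGAMOUS, the floral organ identity gene, had a single peak in each list, in intron 2 of 8. In replicate 1 the peak ran from 29836208 to 29836579 on chromosome 6 (372 bp), with a fold enrichment of 2.41 and a −log10 q of 5.57. In replicate 2 it ran from 29836208 to 29836608 (401 bp), with a fold enrichment of 2.69 and a −log10 q of 7.33. Both intervals began at the same base, and the replicate 1 interval lay wholly within that of replicate 2, which it covered by 92.8%. The merged list gave the position of replicate 2 and a mean fold of 2.55, the average of the replicate values.

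The intron number referred to transcript FvH4_6g37880.t1, while the peak was assigned through transcript FvH4_6g37880.t3. The deposited distances to the gene start were 1080 bp (replicate 1), 1046 bp (replicate 2) and 959 bp (merged list), so they varied by more than the shift of the interval. A shared peak in an intron was found for 12.6% of the 18238 genes, and one in intron 2 for 2.45%. Of the 2434 shared intron peaks, 454 (18.7%) lay in intron 2 and 1138 (46.8%) in intron 1.

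The AGAMOUS peak was a weak one in both lists. Only 8.86% of replicate 1 peaks and 26.7% of replicate 2 peaks had a lower fold enrichment, and it ranked 17562 of 19298 and 15976 of 21823. The mean of 2.55 ± 0.199 (SD, n = 2) exceeded that of 9.39% of the 2450 pairs of overlapping intron peaks, whose median was 3.09. The replicates differed by 0.281 in fold enrichment, and 42.1% of all 13665 pairs of overlapping peaks differed by less. The interval was longer than 67.1% of replicate 1 peaks and 71.1% of replicate 2 peaks, so the low fold enrichment did not go with a short peak. With only peaks at or above the median fold of each list, or of a −log10 q of at least 10, AGAMOUS had 0 shared peaks.

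No other peak lay near this one. The next peak towards lower coordinates was 8161 bp away in replicate 1 and 8314 bp away in replicate 2. Towards higher coordinates the gaps were longer, 13155 bp in replicate 1 and 53006 bp in replicate 2. The intron peak thus stood alone within this stretch in both lists. The gaps between peaks over the whole lists are not given here, so these gaps are not called unusual.

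MADS-box 2 had 3 peaks in each list, all annotated to the 5′ UTR through transcript FvH4_4g23530.t5, and each overlapped its counterpart in the other replicate. The 3 peaks are called first, middle and last here, in order along chromosome 4 and away from the gene start. Having 3 or more shared peaks was seen in 407 of the 18238 genes (2.23%). A shared 5′ UTR peak was found for 6.77%, and 3 or more of them for 4 genes (0.0219%). The other 3 of these, looked up after the count was seen, were FvH4_3g45741 (calpain-type cysteine protease DEK1), FvH4_4g21420 (squamosa promoter-binding-like protein 12) and FvH4_5g02310 (lysine-specific demethylase rbr-2). The number of such peaks a gene can hold depends on the length of its annotated 5′ UTR, which was not analysed here.

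The first MADS-box 2 peak ran from 25998769 to 25999251 in replicate 1 (483 bp) and from 25998747 to 25999209 in replicate 2 (463 bp), with 441 bp in common. Its fold enrichment was 3.72 in replicate 1 and 3.52 in replicate 2, a mean of 3.62 ± 0.142 (SD, n = 2). It was the strongest of the gene's peaks in both lists, above 86.8% of replicate 1 peaks and 80.3% of replicate 2 peaks. It stood 197 bp (replicate 1), 172 bp (replicate 2) or 60 bp (merged list) from the deposited gene start. Counted from peak centres in the replicate lists, the inferred start fell between 25998806 and 25998937, inside this peak in both lists. By that approximate start, part of the peak lay upstream of the gene, though the authors annotated it to the 5′ UTR.

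The middle peak ran from 25999494 to 25999791 in replicate 1 (298 bp) and from 25999432 to 25999802 in replicate 2 (371 bp), so that the replicate 1 interval lay within that of replicate 2. Its fold enrichment was 3.56 and 3.44, a mean of 3.50 ± 0.0809 (SD, n = 2), which was the closest agreement among the 4 shared peaks of the 3 genes. It stood 706 and 721 bp from the gene start. Only 13.6% of the 1265 shared 5′ UTR peaks of the series lay over 500 bp from the start of their gene.

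The last peak ran from 26000512 to 26000725 in replicate 1 (214 bp) and from 26000512 to 26000740 in replicate 2 (229 bp), beginning at the same base in both. Its fold enrichment was 3.11 in replicate 1 and 3.43 in replicate 2, a mean of 3.27 ± 0.226 (SD, n = 2). The deposited distances were 1705 and 1712 bp, and 18 of the 1265 shared 5′ UTR peaks (1.42%) lay over 1500 bp from the start. It was short in both lists, with 5.29% of replicate 1 peaks and 16.3% of replicate 2 peaks shorter.

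The order of the MADS-box 2 peaks by fold enrichment was first, middle, last in both lists, but the spacing between them was not the same. In replicate 1 the first peak exceeded the last by 0.613 in fold enrichment, and in replicate 2 by 0.0934. The middle and last peaks differed by 0.445 in replicate 1 and by 0.0110 in replicate 2, which is below the SD of either peak. The first peak exceeded the middle by 0.168 in replicate 1 and 0.0824 in replicate 2. The average, 0.125, was below the SD of the first peak (0.142) and above that of the middle (0.0809). For the middle and last peaks the average difference was 0.228, above the SD of the middle and about that of the last (0.226). These SDs are of each peak between replicates and not of the differences within a replicate. The order was not tested.

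The whole cluster spanned 1957 bp in replicate 1 and 1994 bp in replicate 2. Between the first and middle peaks lay a gap of 242 bp in replicate 1 and 222 bp in replicate 2, and between the middle and last peaks 720 and 709 bp. The centres of the first and middle peaks were 632.5 bp apart in replicate 1 and 639 bp apart in replicate 2. The centres of the middle and last were 976 and 1009 bp apart. These spacings differed between replicates by 6.5 bp and 33 bp. Outside the cluster the nearest peak lay 6430 bp before it in replicate 1 and 6396 bp before it in replicate 2, and 3643 and 3654 bp after it.

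The merged list kept all 3 peaks as the joined intervals of the replicates, from 25998747 to 25999251, 25999432 to 25999802 and 26000512 to 26000740, with mean folds of 3.62, 3.50 and 3.27. These stood above 82.8%, 76.4% and 61.8% of the 13283 merged peaks. The AGAMOUS peak stood above 8.996% of them.

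**Figure D2:**
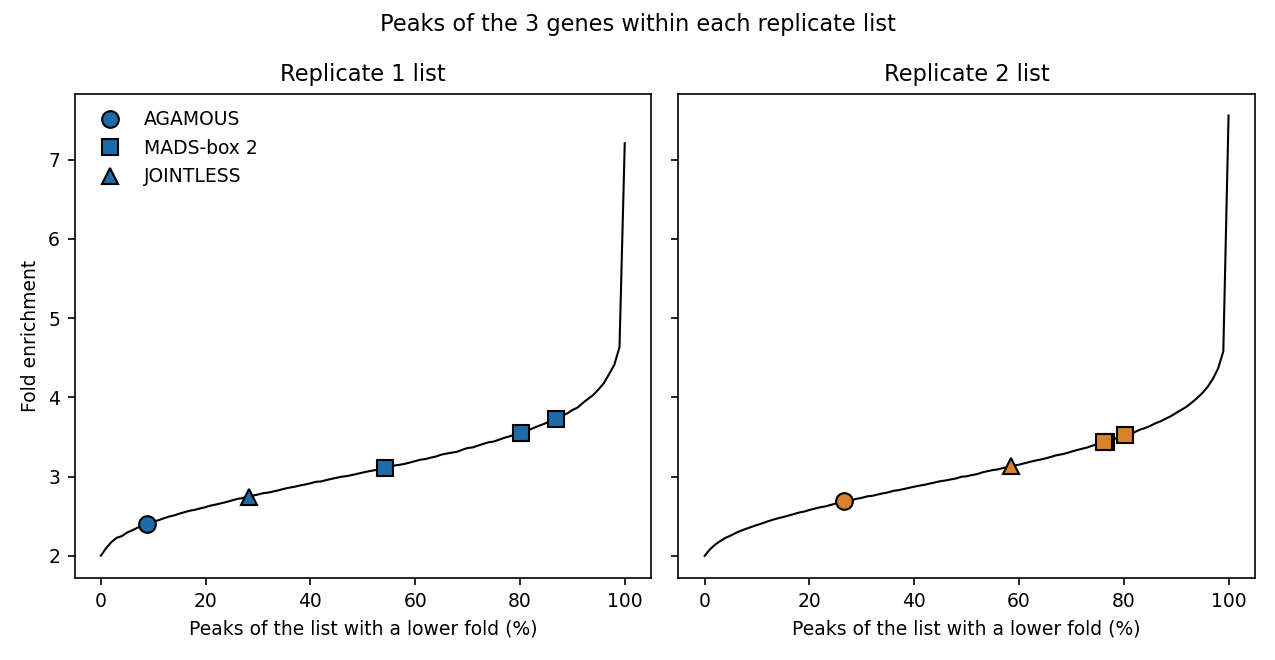
The curve gives the fold enrichment (vertical axis) against the percentage of peaks in the same list with a lower value (horizontal axis), for replicate 1 on the left and replicate 2 on the right, and the symbols mark the peaks of the 3 genes. AGAMOUS is the lowest in both lists (at 8.86% and 26.7%), JOINTLESS lies next (at 28.3% and 58.5%, different sites), and MADS-box 2 runs from 54.2% to 86.8%.

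JOINTLESS, described by the name of the tomato abscission zone gene, had 1 peak in each list, at different places. In replicate 1 the peak ran from 11928063 to 11928284 on chromosome 1 (222 bp), in intron 1 of 8 and 296 bp from the deposited gene start. Its fold enrichment was 2.75 with a −log10 q of 7.08, above 28.3% of the list. In replicate 2 the peak ran from 11931611 to 11931825 (215 bp), in a distal intergenic position at −3225 bp from the gene start, that is upstream of it. Its fold enrichment was 3.13 with a −log10 q of 10.2, above 58.5% of the list.

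The 2 JOINTLESS peaks were 3326 bp apart, and each was the nearest peak of the other list, so neither had a counterpart. The merged list accordingly held no JOINTLESS peak. A peak in both lists with none in common was seen in 750 of the 18238 genes (4.11%). Peaks without a counterpart made up 29.5% of the replicate 1 list, with a median fold of 2.90, and 38.0% of the replicate 2 list, with a median of 2.85. The intron peak thus lay below the median of unpartnered replicate 1 peaks, and the intergenic peak above that of replicate 2. Among replicate 1 intron peaks 31.7% lacked a counterpart, and among replicate 2 distal intergenic peaks 39.7%.

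The replicate 2 peak lay between JOINTLESS and the neighbouring FvH4_1g19720, described as kinesin-like protein KCA2 and named here after its values were seen. The deposited distances of both genes place their starts on facing sides of this peak, 3237 bp from its centre for JOINTLESS and 3603 bp for FvH4_1g19720. These starts were inferred by counting the distances from peak centres, and the inferred start of FvH4_1g19720 varied by 317 bp over its 4 peaks, against 24 bp over the 2 JOINTLESS peaks. JOINTLESS was the nearer gene at every inferred start. Replicate 2 also held a peak of FvH4_1g19720 at −1492 bp, from 11933658 to 11933876 with a fold enrichment of 3.16, which replicate 1 did not hold.

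Set side by side, the overlapping peaks of AGAMOUS and MADS-box 2 were placed by both replicates about as closely as peaks of the series in general. The centres of the overlapping peaks were 14.5 bp apart for AGAMOUS and 32, 25.5 and 7.5 bp apart for the first, middle and last MADS-box 2 peaks. The median over all 13665 overlapping pairs was 28 bp. The overlap covered 92.8% of the longer interval for AGAMOUS, and 91.3%, 80.3% and 93.4% for the MADS-box 2 peaks, against a median of 82.9%. In fold enrichment, replicate 2 was above replicate 1 for AGAMOUS (by 0.281) and for the last MADS-box 2 peak (by 0.319). It was below replicate 1 for the first peak (3.52 against 3.72) and the middle one (3.44 against 3.56). All 4 differences were smaller than the median absolute difference over all pairs, 0.344.

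Other genes of the family were taken from the descriptions by a list of words for MADS-box genes. The list held 49 genes with a peak in either replicate list, of which 3 are described as UPSTREAM OF FLC or DOWNSTREAM OF FLC and are not described as MADS-domain proteins. Of the 49 genes, 32 had a shared peak (65.3%, against 59.2% of all 18238 genes), and without those 3 genes it was 30 of 46 (65.2%). MADS-box 2 was the only one with 3 shared peaks, while 5 genes had 2 and 26 had 1, AGAMOUS among the latter. Of the genes with 2, FvH4_3g33170 (AGL61) had only 1 replicate 2 peak assigned to it and none in the merged list. JOINTLESS was 1 of 3 genes with peaks in both lists and none in common, a pattern seen in 4.11% of all 18238 genes. A further 14 genes had peaks in a single list. The shares of all genes with 1 or 2 shared peaks, or with peaks in a single list, are not given here. These counts are therefore not read as particular to MADS-box genes. Genes without any peak are not in these lists, so the shares are not shares of the whole family.

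The strongest shared peak of each of the 32 genes had a mean fold between 2.45 and 4.46, with a median of 3.18, beside a median of 3.20 over all 10793 genes with a shared peak. MADS-box 2 ranked 8 of 32 and AGAMOUS ranked 31. Only FvH4_4g19210, described as JOINTLESS-like, was lower, at 2.45 ± 0.193 (SD, n = 2), a difference from AGAMOUS that is less than the SD of either gene. The JOINTLESS-like peak lay in intron 1, on chromosome 4 from 22914246 to 22914558 in replicate 1, with fold enrichments of 2.59 and 2.32. For JOINTLESS itself an intron 1 peak was listed in replicate 1 only.

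**Figure D3:**
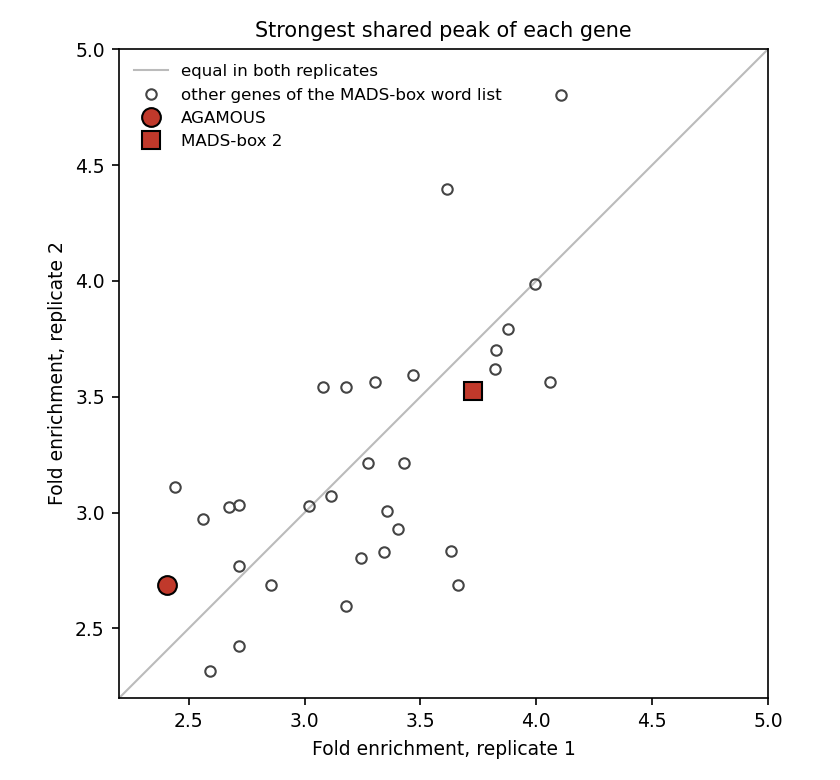
Each point is 1 of the 32 genes of the MADS-box word list with a shared peak, at the fold enrichment of its strongest shared peak in replicate 1 (horizontal axis) and replicate 2 (vertical axis). MADS-box 2 (red square, 3.72 and 3.52) ranks 8 by mean fold and AGAMOUS (red circle, 2.41 and 2.69) ranks 31, while JOINTLESS has no shared peak and is not shown.

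The 5 genes of the list with the highest mean fold of a shared peak were FvH4_5g21500 (AGL80) at 4.46 ± 0.493 (SD, n = 2), FvH4_3g02880 (pvg4-like) at 4.005, FvH4_6g08460 (AGL80) at 3.99, FvH4_4g35860 (AGL62) at 3.83 and FvH4_2g40280 (AGL61) at 3.81. The strongest MADS-box 2 peak, at 3.62, was below all of them by an amount that was not tested. A shared intron peak, as in AGAMOUS, was found in 10 of the 49 genes, beside 12.6% of all genes, with the strongest shared peak in intron 1 for 8 of them, in intron 2 for AGAMOUS and in intron 9 for FvH4_5g21500. A shared 5′ UTR peak, as in MADS-box 2, was found in 3 of the 49, MADS-box 2 included, beside 6.77% of all genes. Without the 3 genes named for FLC it was 2 of 46.

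Likeness was measured by the sum of differences in the numbers of replicate 1, replicate 2 and shared peaks over the 2 replicates, with ties decided by the mean fold of the strongest shared peak. For AGAMOUS 17 genes had the same numbers, and the closest in fold were FvH4_1g21330 (DOWNSTREAM OF FLC-like) at 2.57 and the JOINTLESS-like FvH4_4g19210. For MADS-box 2 no gene had the same numbers, and the closest was FvH4_5g34740 (AGL61), with 2 peaks, 3 peaks and 2 shared. Next came 3 genes tied with 2 of each, of which FvH4_2g40280 (AGL61) was the closest in fold. The others of that tie are described as AGL18 and MADS-box transcription factor 6-like. For JOINTLESS the same numbers were found in FvH4_3g14511 (AGL61) and FvH4_3g30680 (UPSTREAM OF FLC), each with 1 peak in either list and 0 shared.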

How the data were processed

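The analysis used 3 tables that the authors deposited, 1 per IP replicate and 1 that merges both, whose mean −log10 q column was not used. No list of the input library was analysed here. BWA and MACS2 are named in the submitters' processing notes, with versions, settings and genome build not given in the sources used here. Each peak carried a −log10 p and −log10 q value of the peak caller and a fold enrichment, a ratio, all as deposited by the authors. Gene assignment, position class, intron number and distance to the gene start were also the authors' deposited values. Counted from the start, end or centre of the peaks, the distances gave the same gene start within 1 bp for at most 1.12% of transcripts with several peaks in a list, so they are approximate. For MADS-box 2 the start counted from peak centres varied by 131 bp over 6 peaks.

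Peaks of the 3 genes were taken by gene ID, by assignment or by position. Overlap of at least 1 bp was computed with Python 3.11.15 and pandas 2.3.3 and checked against bedtools 2.31.1 and on simulated data. Fold enrichment was used to describe and rank peaks within a list. A mean ± SD covers the 2 deposited values. No p-values were computed, since all IP samples form 1 group.

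The genes, the word list and the rule for named genes were chosen with earlier results of these data known. That rule named the 3 genes, JOINTLESS-like genes, the 5 genes of the word list with the highest mean fold, and the 2 genes most like each of the 3. The protein identifier of 1 of the 3 genes matched the reference table supplied, of assembly FraVesHawaii_1.0, which was not used for positions or names. No sequence is shown, as none was held for these positions.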

Additional observations from a re-analysis of the deposited data

How the results depend on the processing

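Requiring 50% overlap of both peaks, midpoints within 100 bp, the gene a peak lies in, or the merged list left the number of shared peaks of all 3 genes as reported. The gene a peak lies in was read from intron and exon annotations only. That setting could therefore not change the count of MADS-box 2, whose peaks were all annotated to the 5′ UTR. With only peaks of a −log10 q of at least 10, AGAMOUS had 0 shared peaks, MADS-box 2 had 2, and 12 genes of the MADS-box word list had a shared peak, 2 of them in an intron. With only peaks at or above the median fold of each list, AGAMOUS again had 0, MADS-box 2 had 3, and the word list had 16 genes and 4 with an intron peak, against 32 and 10 as reported. Both settings keep fewer peaks of the whole lists, whose median −log10 q was 9.59 in replicate 1 and 10.1 in replicate 2. The share of all 18238 genes under each setting is not given here. The lower counts are therefore not read as particular to MADS-box genes. With 0 shared peaks, AGAMOUS has no fold under these settings, and JOINTLESS has none under any setting that asks for a shared peak. Taking 1 replicate alone, JOINTLESS had from 1 to 1 peaks, a different one in each. No other of the 56 recomputed values moved by more than 1.5 times for a count or by more than the SD for a fold. For the fold of 1 replicate alone this outcome was fixed in advance. Each of 2 values always lies within the SD of their mean. The merged list holds the mean of the same values, so these unchanged folds say nothing of stability. Leaving out the 3 genes named for FLC, an alternative chosen after seeing the data, gave 30 genes with a shared peak. No paired analysis was possible because only 1 group has peak lists. The lists give no read counts, so how depth limits the detection of a counterpart is unknown.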
